A study of Mus musculus with 8 samples.

Results

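The 10 genes described here, Nes, Vim, Prom1, Hopx, Fabp7, Egfr, Nr2e1, Pax6, Msi1 and Cd44, are markers by which neural stem and progenitor cells are recognised. They were taken as a named set, and their probes were found through the RefSeq accession given for each spot of the arrays. All 10 were among the 18350 genes that the arrays carried and among the 13331 genes that were tested. Each was read by at least 1 probe that was well above background on all 8 arrays.

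In the adult hippocampus, neural stem cells are radial glia-like cells of the dentate gyrus that divide to give proliferating progenitors, which in turn give neurons and glia. The markers span the working parts of such a cell. Nes and Vim are intermediate filaments of its processes, and Fabp7 is a lipid carrier of radial glia. Egfr and Cd44 are surface proteins through which it meets its growth factors and matrix, and Prom1 is another membrane protein. Nr2e1, Pax6 and Hopx are transcriptional regulators of self-renewal, and Msi1 is an RNA-binding repressor of translation. Astrocytes and glial precursors also make several of these markers, among them Vim, Fabp7 and Cd44.

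RNA came from secondary hippocampal neurospheres, floating clusters that grew after primary spheres were taken apart and reseeded with EGF and bFGF (20 ng/ml each) and heparin. The mice were 7 to 9 weeks old, and each group had 2 arrays. Sirt1 KO spheres are labelled as knockouts of Sirt1, which encodes an NAD-dependent protein deacetylase. They and the WT spheres carried the strain label 129/ICR, grew for 6 days, and came from females for replicate 1 and from males for replicate 2. Resveratrol spheres, given a plant polyphenol used to activate SIRT1, and DMSO spheres, given its solvent, came from wild-type C57BL/6 males and grew for 5 days before 24 hours of treatment, with the resveratrol dose labelled as 10 "mm". The labels state neither how Sirt1 was deleted nor in which cells, nor whether animals were pooled. Apart from sex, nothing in them tells whether replicates were separate cultures. The p-values therefore reflect the spread among these samples alone, which may be technical.

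The 75th percentile of the signal ran from 249 to 871 across arrays, and 53.1% to 72.0% of probes were well above background. That percentile was lower on replicate 2 than on replicate 1 in every group. The arrays lay on 3 slides. Sirt1 KO 1 shared slide 2 with resveratrol 2 and DMSO 2, while WT 1 was on slide 1 with resveratrol 1 and DMSO 1. Sirt1 KO 2 and WT 2 were on slide 3, which was scanned on another day. Replicate 2 of Sirt1 KO and WT and both pairs of resveratrol and DMSO were thus compared within a slide. The brighter of 2 probes for Sirt1 read 0.42 and -0.07 in Sirt1 KO spheres, against 0.16 and 0.17 in WT spheres, and it is not stated where the probes lie relative to the deletion, so these readings do not check the genotype. Among markers of other cells, all 8 of oligodendrocyte precursors were above background in every group. Of 11 neuronal markers, 7 were above it on both arrays in Sirt1 KO, resveratrol and DMSO spheres, and 6 in WT spheres. Eomes, Neurod1, Snap25 and Stmn2 were below it in every group, as were 6 of 8 microglial markers. In whole spheres, fewer cells of a type and less RNA per cell cannot be told apart.

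Levels below are log2 signals relative to the 75th percentile of the same array, so that 0 stands for that percentile and a difference of 1 for a doubling. Levels of different genes come from different probes and are not compared with each other. Tests are two-sided limma tests with Benjamini-Hochberg adjustment over the 13331 genes, and precision is limited by there being 2 arrays in a group.

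**Figure D1:**
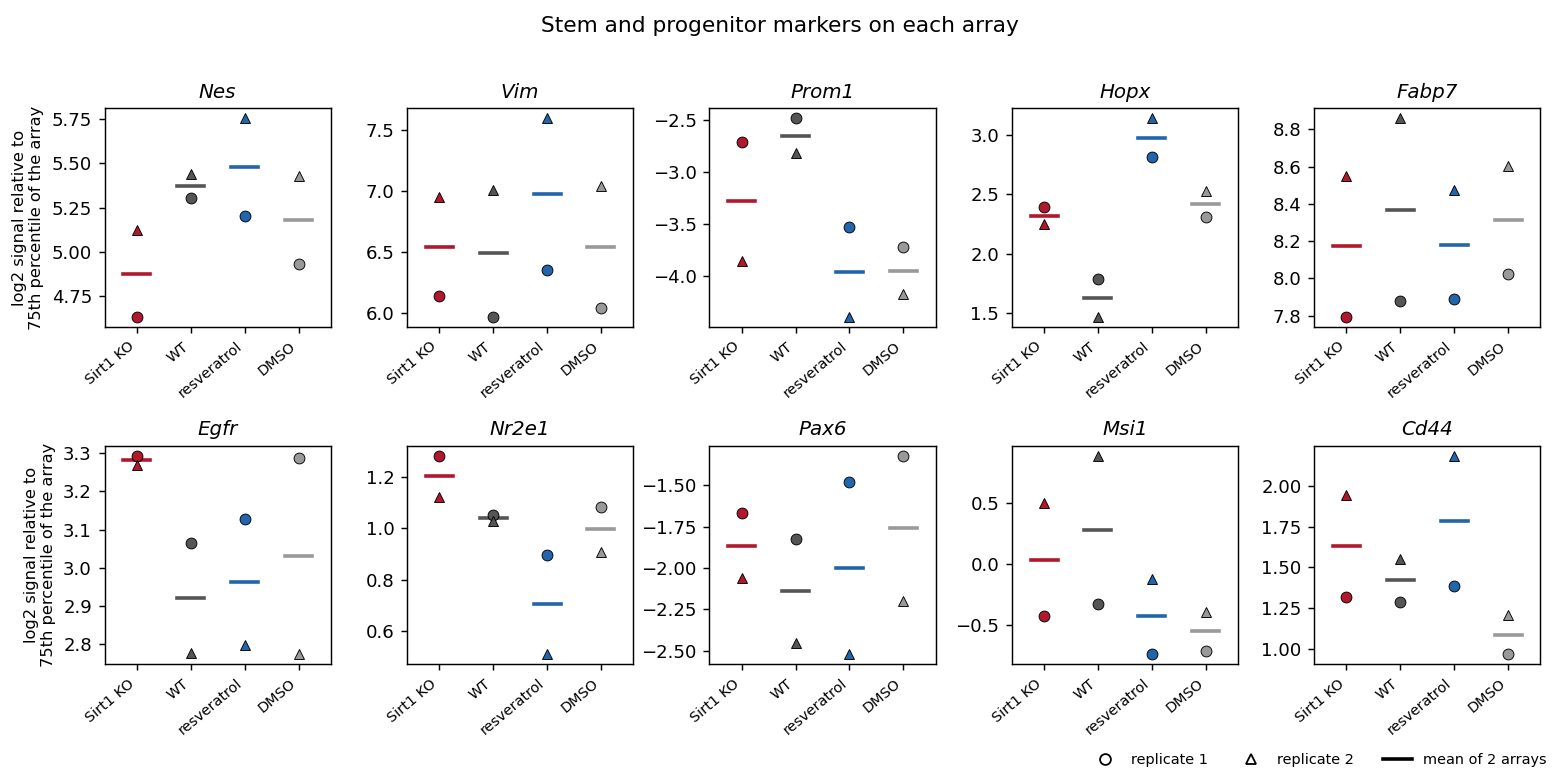
Level of each marker on each array, as log2 signal relative to the 75th percentile of that array, with circles for replicate 1, triangles for replicate 2 and bars for the mean of the 2 arrays of a group. Hopx on both Sirt1 KO arrays (2.39 and 2.25) sits above both WT arrays (1.79 and 1.47), and Vim and Fabp7 differ more between replicates than between groups.

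Sirt1 KO spheres were compared with WT spheres to ask which of the markers differ with knockout of the deacetylase gene. Hopx read higher in Sirt1 KO spheres by 0.69 and Egfr by 0.36, while Prom1 read lower (-0.63) and Nes read lower (-0.49), and the other markers differed by at most 0.27. None of these differences passed the test. Of the 10 markers, 0 passed, as did 0 of all 13331 genes (0%). At an unadjusted p under 0.05 there were 158 genes, 1 of them a marker (Hopx). Both Sirt1 KO arrays were above both WT arrays for 3 markers (Egfr, Hopx and Nr2e1), where 7.6% of all genes had this order, and below both for 1 (Nes), where 7.38% did. The median difference over the markers was 0.11, and over all genes it was -0.03.

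Hopx, an atypical homeodomain protein that binds no DNA itself and is known from quiescent stem cells of several tissues, stood furthest apart. It read 2.39 and 2.25 in Sirt1 KO spheres, against 1.79 and 1.47 in WT spheres. Both Sirt1 KO arrays were above both WT arrays. The difference was 0.69 (SE 0.24), or 1.61-fold higher in Sirt1 KO, with a 95% interval of 0.11 to 1.27 before adjustment (limma, adjusted p = 1). It was 0.60 between the first replicates and 0.78 within slide 3, and 0.60 with slide as a block. Only 1 probe read Hopx, so no second probe bears on it.

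The 250 bases before 2 annotated starts of Hopx are shown because it was the marker with the largest difference between Sirt1 KO and WT, relative to its error. RefSeq places them on build GRCm38.p6, minus strand, at chr5:77115124-77115373 for the first and chr5:77095268-77095517 for the second. They were searched on both strands for the core letters of the RBPJ site through which Notch acts (TGGGAA), a HES class C site (CACGCG), a SOX core (CATTGT) and a TATA box (TATAAA), none of which overlaps another. Neither window held any of the 4. Of 32851 promoter windows of this length, 21.6% held the RBPJ core, 7.62% the HES site, 12.4% the TATA box and 3512 windows the SOX core. This says only that the letters are not in these windows, and both are printed in lower case for that reason.
Hopx window 1: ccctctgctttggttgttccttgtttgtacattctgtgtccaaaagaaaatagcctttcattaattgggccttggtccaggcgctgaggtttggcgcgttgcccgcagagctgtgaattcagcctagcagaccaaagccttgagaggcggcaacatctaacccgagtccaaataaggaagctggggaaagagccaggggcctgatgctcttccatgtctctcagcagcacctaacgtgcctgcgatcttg
Hopx window 2: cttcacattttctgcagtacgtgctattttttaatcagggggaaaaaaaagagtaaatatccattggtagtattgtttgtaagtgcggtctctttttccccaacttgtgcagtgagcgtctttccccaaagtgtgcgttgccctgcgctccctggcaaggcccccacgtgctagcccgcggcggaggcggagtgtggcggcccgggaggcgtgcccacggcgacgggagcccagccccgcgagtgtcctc

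Nr2e1, the orphan nuclear receptor TLX that keeps adult neural stem cells dividing, read 1.28 and 1.12 in Sirt1 KO spheres, against 1.05 and 1.03 in WT spheres. All 4 values lay close together, with the Sirt1 KO arrays above the WT arrays. The difference of 0.16 (SE 0.22, adjusted p = 1) had an interval of -0.37 to 0.70, and this was the 1 marker in the comparison whose interval excluded a doubling in either direction. Pax6, a paired-box factor of radial glia and of neurogenic progenitors, read -1.67 and -2.06 in Sirt1 KO spheres and -1.82 and -2.45 in WT spheres, with overlapping groups and a difference of 0.27 (SE 0.48) that turned to -0.36 under normexp, another background correction. A dimmer Pax6 probe was well above background on 1 of 2 Sirt1 KO arrays and on neither WT array, too few for a fold change.

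Nes encodes nestin, an intermediate filament long used as a marker of neural progenitors. It read 4.64 and 5.12 in Sirt1 KO spheres, against 5.30 and 5.44 in WT spheres. Both Sirt1 KO arrays were below both WT arrays, the only marker with that order. The difference was -0.49 (SE 0.38), which is 1.41-fold lower in Sirt1 KO, and it did not pass the test (adjusted p = 1). It was -0.67 between the first replicates, -0.32 within slide 3 and -0.083 under normexp. Vim, whose product vimentin forms filaments together with nestin, read 6.14 and 6.95 in Sirt1 KO spheres and 5.97 and 7.01 in WT spheres, a difference of 0.05 (SE 0.69). The WT arrays bracketed both Sirt1 KO arrays. Vim changed sign to -0.42 with slide as a block. Fabp7, the brain lipid-binding protein of radial glia, read 7.79 and 8.55 in Sirt1 KO spheres and 7.88 and 8.86 in WT spheres, so that the groups overlapped and differed by -0.20 (SE 0.71), or by 0.14 under normexp.

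The promoter window of Nes is shown because Nes was the only marker with both Sirt1 KO arrays below both WT arrays. It lies at chr3:87970843-87971092 on the plus strand of GRCm38.p6, per RefSeq, and held none of the 4 motifs.
Nes window 1: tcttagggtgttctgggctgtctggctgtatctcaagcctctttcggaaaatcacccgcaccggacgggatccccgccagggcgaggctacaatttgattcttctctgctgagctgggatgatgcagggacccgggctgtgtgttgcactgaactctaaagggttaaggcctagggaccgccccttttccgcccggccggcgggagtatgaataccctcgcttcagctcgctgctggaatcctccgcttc

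Egfr encodes the receptor for EGF, which the culture medium supplied. It read 3.29 and 3.27 in Sirt1 KO spheres, against 3.06 and 2.78 in WT spheres. The Sirt1 KO arrays lay close together and above both WT arrays. The difference was 0.36 (SE 0.28, adjusted p = 1), 0.23 between the first replicates and 0.49 within slide 3. All 4 Egfr probes, which RefSeq assigns to 2 transcripts, pointed the same way. The probes of NM_207655 gave 0.36 each and those of NM_007912 gave 0.26 and 0.22. Probes of 1 gene share their RNA and are not independent.

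Prom1 encodes the membrane protein CD133, used to sort stem and progenitor cells. It read -2.71 and -3.85 in Sirt1 KO spheres, against -2.48 and -2.81 in WT spheres. Sirt1 KO 2 was the lowest of these arrays and Sirt1 KO 1 lay between the WT values, so the groups overlapped. The difference of -0.63 (SE 0.52, adjusted p = 1) was -0.23 between the first replicates and -1.04 within slide 3, and it was -0.064 without Sirt1 KO 2. A dimmer Prom1 probe was well above background on 1 of 2 arrays in each of these groups, too few for a fold change. On those arrays it pointed the other way, at -3.45 on Sirt1 KO 1 and -3.67 on WT 1. Cd44, the receptor for the matrix glycan hyaluronan, read 1.32 and 1.94 in Sirt1 KO spheres and 1.29 and 1.55 in WT spheres, a difference of 0.21 (SE 0.35) with overlapping groups, and 0.34 on its second probe. Msi1, which blocks translation of differentiation genes such as Numb, read -0.42 and 0.50 in Sirt1 KO spheres and -0.33 and 0.88 in WT spheres, a difference of -0.24 (SE 0.49) with overlapping groups.

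By direction alone, 5 markers were higher and 4 lower in Sirt1 KO in both replicate pairs, where 23.4% of all genes were higher and 32.5% lower. Markers of other cells and of division were read in the same spheres, and 0 of them passed the test. Summed over 10 astrocyte markers, the linear level relative to the 75th percentile was 163 to 277 in Sirt1 KO spheres, against 100 to 169 in WT spheres, which overlapped. Over the 7 oligodendrocyte markers on the arrays, the sums were 9.74 to 10.66 in Sirt1 KO spheres, against 6.46 to 7.66 in WT spheres, without overlap. Of 12 genes of cycling cells, 11 were lower in both pairs, with sums of 119 to 162 in Sirt1 KO spheres and 167 to 204 in WT spheres. Their part in the values of the stem and progenitor markers was not tested.

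**Figure D2:**
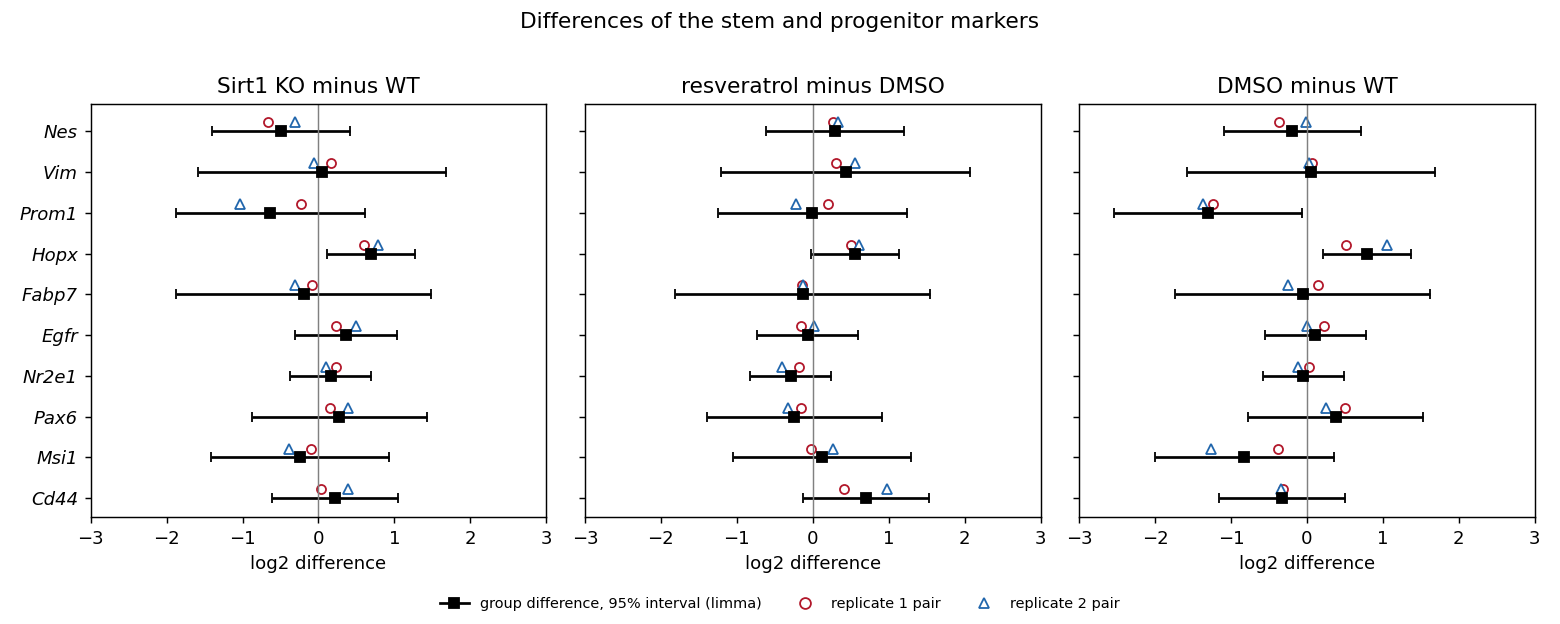
Difference of each marker in log2 units in the 3 pairwise comparisons, with squares and bars for the limma estimate and its 95% interval before adjustment, and open symbols for each replicate pair. Hopx is to the right of 0 in all 3 panels (0.69, 0.56 and 0.79), and Prom1 is furthest to the left in DMSO minus WT (-1.30).

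Resveratrol was compared with its solvent to ask what a day of the compound does to the same markers in wild-type spheres. Cd44 read higher in resveratrol spheres by 0.70, Hopx by 0.56 and Vim by 0.43, and Nr2e1 read lower (-0.29). None of these differences passed the test. Of the 10 markers, 0 passed, as did 0 of 13331 genes (0%). There were 203 genes at an unadjusted p under 0.05, none of them a marker. Both resveratrol arrays were above both DMSO arrays for 2 markers (Cd44 and Hopx), against 10.2% of all genes, and below both for 1 (Nr2e1), against 8.86%. The median difference was 0.06 over the markers and 0.01 over all genes.

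Cd44 differed most. It read 1.38 and 2.19 in resveratrol spheres, against 0.97 and 1.21 in DMSO spheres. The resveratrol arrays were above both DMSO arrays, and the second stood clear of the other 3. The difference was 0.70 (SE 0.35), or 1.62-fold higher in resveratrol, with an interval of -0.13 to 1.53 (limma, adjusted p = 1). Within slide 1 it was 0.42 and within slide 2 it was 0.98. A second Cd44 probe gave 0.63. The remaining probe was not well above background on any array.

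The Cd44 promoter window is shown because Cd44 had the largest difference under resveratrol. It lies at chr2:102901666-102901915 on the minus strand of GRCm38.p6, per RefSeq, with the RBPJ core in capitals. The letters occur on both strands. They lie from 207 to 202 bases before the start as TGGGAA. From 179 to 174 bases before it they appear as the reverse complement TTCCCA. Prom1, Fabp7 and Nr2e1 also held the core, each 1 time, while Hopx, Nes, Egfr and Pax6 did not, and Vim held only a TATA box 32 to 27 bases before its start. A match is a description of the letters and not a binding site.
Cd44 window 1: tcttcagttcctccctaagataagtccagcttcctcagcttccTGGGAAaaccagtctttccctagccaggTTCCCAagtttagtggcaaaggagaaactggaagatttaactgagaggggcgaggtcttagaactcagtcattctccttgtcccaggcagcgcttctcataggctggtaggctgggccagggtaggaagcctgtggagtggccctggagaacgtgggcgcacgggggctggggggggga

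Hopx read 2.81 and 3.14 in resveratrol spheres, against 2.31 and 2.53 in DMSO spheres. Both resveratrol arrays were above both DMSO arrays. The difference was 0.56 (SE 0.24, adjusted p = 1), 0.50 within slide 1 and 0.61 within slide 2, with an interval of -0.02 to 1.14. Hopx was thus higher in Sirt1 KO than in WT and higher in resveratrol than in DMSO. It was higher in both replicate pairs of each comparison, as were Cd44 and 9.68% of all genes.

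Nr2e1 read 0.90 and 0.51 in resveratrol spheres, against 1.08 and 0.91 in DMSO spheres. Resveratrol 2 was the lowest of all 8 arrays for this gene, and the groups did not overlap. The difference was -0.29 (SE 0.22), with -0.19 within slide 1 and -0.40 within slide 2. Its interval of -0.83 to 0.24 excluded a doubling in either direction, as did that of Egfr (-0.74 to 0.60). Pax6, which was higher in both pairs of Sirt1 KO minus WT, read -1.48 and -2.52 in resveratrol spheres and -1.32 and -2.20 in DMSO spheres, lower within both slides with overlapping groups (difference -0.24, SE 0.48).

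Both filament genes were higher within each slide. Nes read 5.20 and 5.75 in resveratrol spheres and 4.93 and 5.43 in DMSO spheres, a difference of 0.30 (SE 0.38) that was 0.27 in slide 1 and 0.33 in slide 2. Vim read 6.35 and 7.60 in resveratrol spheres and 6.04 and 7.04 in DMSO spheres, a difference of 0.43 (SE 0.69) that was 0.31 in slide 1 and 0.55 in slide 2. For both genes the gap between replicates was larger than the gap between groups, so the groups overlapped and neither passed the test. Fabp7 differed by -0.13 in each slide, on levels of 7.89 and 8.48 in resveratrol spheres and 8.02 and 8.61 in DMSO spheres.

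Prom1 read -3.53 and -4.39 in resveratrol spheres and -3.72 and -4.18 in DMSO spheres, with the slides pointing opposite ways (0.20 and -0.21). Msi1 read -0.73 and -0.12 in resveratrol spheres and -0.70 and -0.39 in DMSO spheres, a difference of 0.12 (SE 0.49). Egfr read 3.13 and 2.80 in resveratrol spheres and 3.29 and 2.77 in DMSO spheres. The DMSO arrays bracketed the resveratrol arrays, and the difference was -0.07 (SE 0.28). Its probes split by transcript, as the 2 probes of NM_207655 gave -0.07 and -0.13 and the 2 of NM_007912 gave 0.21 and 0.11. Within each array, the mean level of the NM_207655 probes minus that of the NM_007912 probes was 0.75 and 0.36 in resveratrol spheres, against 1.05 and 0.57 in DMSO spheres. Resveratrol minus DMSO, it differed by -0.30 within slide 1 and by -0.21 within slide 2. Between Sirt1 KO and WT the same quantity differed by -0.0049 between the first replicates and by 0.25 within slide 3. These values were not tested, and they do not show which transcript differed. In every group the quantity was higher on replicate 1, the array with the higher 75th percentile. That percentile was also higher in DMSO than in resveratrol spheres within slide 1 (746 and 716) and slide 2 (377 and 287). The part of signal strength in these values was not tested.

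In the same spheres, 10 of 12 genes of cycling cells were lower with resveratrol within both slides, where 33% of all genes were, with summed levels of 133 to 173 in resveratrol spheres and 147 to 206 in DMSO spheres. Of 8 oligodendrocyte precursor markers, 7 were lower within both slides, with sums of 171 to 172 in resveratrol spheres and 203 to 229 in DMSO spheres. Oligodendrocyte marker sums were 6.83 to 7.92 in resveratrol spheres and 8.89 to 10.5 in DMSO spheres, without overlap. Astrocyte marker sums were 223 to 226 in resveratrol spheres and 201 to 225 in DMSO spheres. In none of these lists did a gene pass the test, and their part in the values of the stem and progenitor markers was not tested.

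**Figure D3:**
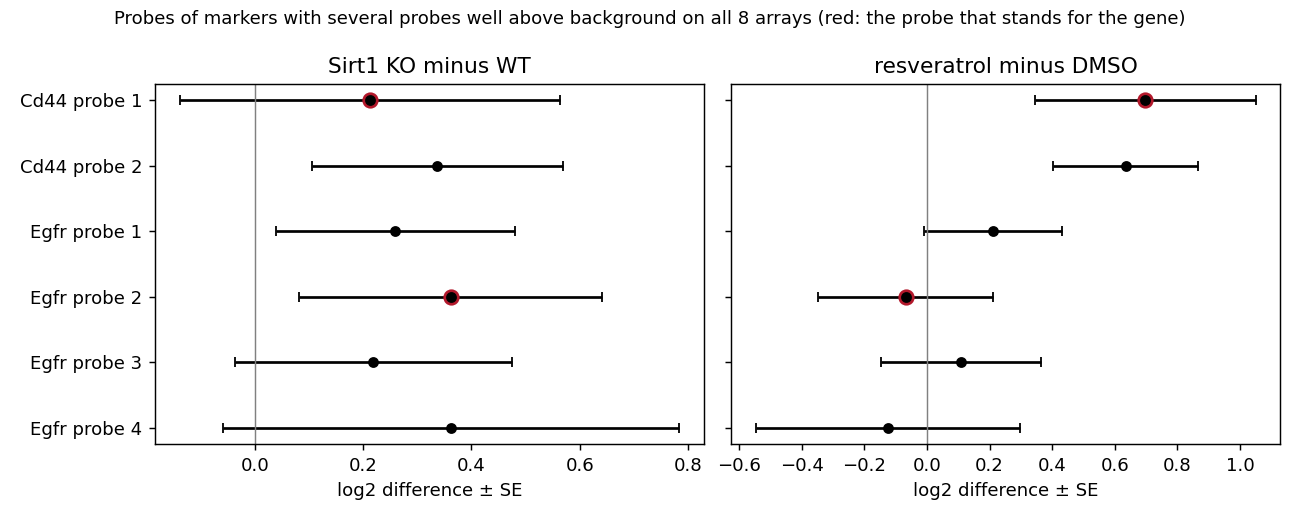
Log2 difference with its standard error for each probe of the 2 markers that had several probes well above background on all 8 arrays, for Sirt1 KO minus WT and resveratrol minus DMSO, with red rings on the probe that stands for the gene. The Cd44 probes lie together under resveratrol (0.70 and 0.63), and the 4 Egfr probes lie to the right of 0 in Sirt1 KO minus WT and on both sides of it under resveratrol.

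The difference between these differences was fitted to ask whether a marker differed unequally in Sirt1 KO and under resveratrol. Of the 10 markers, 0 passed, as did 0 of 13331 genes (0%), and there were 126 genes at an unadjusted p under 0.05, none of them a marker. The 2 comparisons share no arrays. Nes had the largest value at -0.79 (SE 0.54, adjusted p = 1), lower in Sirt1 KO and higher with resveratrol. For Hopx the value was 0.13 (SE 0.35), with an interval of -0.69 to 0.96.

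The DMSO and WT spheres were both wild type and differed in strain label, solvent and culture schedule, which cannot be told apart. Replicate 1 also differed in the sex of the mice, and replicate 2 in slide and scan day. In DMSO minus WT 10 of 13331 genes passed (0.075%), and 0 markers did. There were 747 genes at an unadjusted p under 0.05, of which Hopx and Prom1 were markers. Both DMSO arrays were above both WT arrays for 1 marker (Hopx), against 12.7% of all genes, and below both for 3 (Cd44, Msi1 and Prom1), against 13.5%. This comparison shares the WT arrays with Sirt1 KO minus WT and the DMSO arrays with resveratrol minus DMSO. As an alternative, a replicate block was fitted separately in the genotype groups and in the treatment groups. It pairs no DMSO array with a WT array, and it takes the gap between replicates out of the error of this comparison. With this block 1570 genes passed (11.8%), among them 3 markers: Hopx (adjusted p = 0.00384), Msi1 (adjusted p = 0.0108) and Prom1 (adjusted p = 0.0278). These calls thus leave out the spread between replicates. Astrocyte marker sums were 201 to 225 in DMSO spheres and 100 to 169 in WT spheres, and oligodendrocyte marker sums were 8.89 to 10.5 in DMSO spheres and 6.46 to 7.66 in WT spheres, neither overlapping. Gfap, the filament of astrocytes, was well above background on both DMSO arrays and on neither WT array. The part of these in the values of the stem and progenitor markers was not tested.

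Hopx averaged 2.42 ± 0.15 in DMSO spheres and 1.63 ± 0.22 in WT spheres (SD, n = 2 each), a difference of 0.79 (SE 0.24, adjusted p = 0.552). Prom1 averaged -3.95 ± 0.32 in DMSO spheres and -2.65 ± 0.23 in WT spheres, a difference of -1.30 (SE 0.52, adjusted p = 0.832) that was -1.24 for replicate 1 and -1.36 for replicate 2. With the mean of the kept Prom1 probes, which takes in a dimmer one not above background on WT 2, the difference was -0.72 (adjusted p = 0.9997). Msi1 averaged -0.55 ± 0.23 in DMSO spheres and 0.28 ± 0.86 in WT spheres, a difference of -0.82 (SE 0.49), with WT 2 far above WT 1.

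Across the 4 groups the order of Hopx ran from WT (1.63) through Sirt1 KO (2.32 ± 0.10) and DMSO (2.42) to resveratrol (2.98 ± 0.23). Sirt1 KO and DMSO, neighbours in this order, overlapped. The order of Cd44 ran from DMSO (1.09 ± 0.17) through WT (1.42 ± 0.19) and Sirt1 KO (1.63 ± 0.44) to resveratrol (1.79 ± 0.57), and the arrays of the 2 highest groups overlapped. Nr2e1 ran from resveratrol (0.70 ± 0.27) through DMSO (0.996 ± 0.12) and WT (1.04 ± 0.02) to Sirt1 KO (1.20 ± 0.11), where the WT values lay between those of DMSO. Nes ran from Sirt1 KO (4.88 ± 0.34) through DMSO (5.18 ± 0.35) and WT (5.37 ± 0.09) to resveratrol (5.48 ± 0.39), with overlap between every pair of neighbours. Prom1 was lowest in resveratrol (-3.96 ± 0.61) and DMSO, which overlapped, then Sirt1 KO (-3.28 ± 0.81), then WT.

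The group means of Fabp7 and of Vim spanned less than the SD within any group. Fabp7 means spanned 0.20, from 8.17 ± 0.53 in Sirt1 KO to 8.37 ± 0.70 in WT. Egfr means spanned 0.36, from 2.92 ± 0.20 in WT to 3.28 ± 0.02 in Sirt1 KO. The Sirt1 KO arrays overlapped neither the WT arrays nor the resveratrol arrays. Pax6 means spanned 0.38, from -2.14 ± 0.44 in WT to -1.76 ± 0.62 in DMSO, and Vim means spanned 0.48, from 6.49 ± 0.73 in WT to 6.98 ± 0.88 in resveratrol. Msi1 means spanned 0.82, from DMSO to WT, with both DMSO arrays below both WT arrays.

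For most markers the 2 arrays of a group differed in a fixed direction. Nes, Vim, Fabp7, Msi1 and Cd44 were higher on replicate 2 in all 4 groups, as were 44.3% of all genes. Prom1, Egfr, Nr2e1 and Pax6 were higher on replicate 1 in all 4 groups, as were 21.4% of all genes. Hopx alone among the markers was mixed, higher on replicate 1 in Sirt1 KO and WT and on replicate 2 in resveratrol and DMSO. As replicate 1 minus replicate 2, the gap of Vim ran from -1.24 in resveratrol spheres to -0.81 in Sirt1 KO spheres and was the widest of the markers in resveratrol and DMSO. In Sirt1 KO the gap of Prom1 was wider (1.14), and in WT that of Msi1 was (-1.21). Signal strength and slide go with the replicate number, as do the sex of the mice and the scan day in the genotype groups. Their part in these gaps was not tested.

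**Figure D4:**
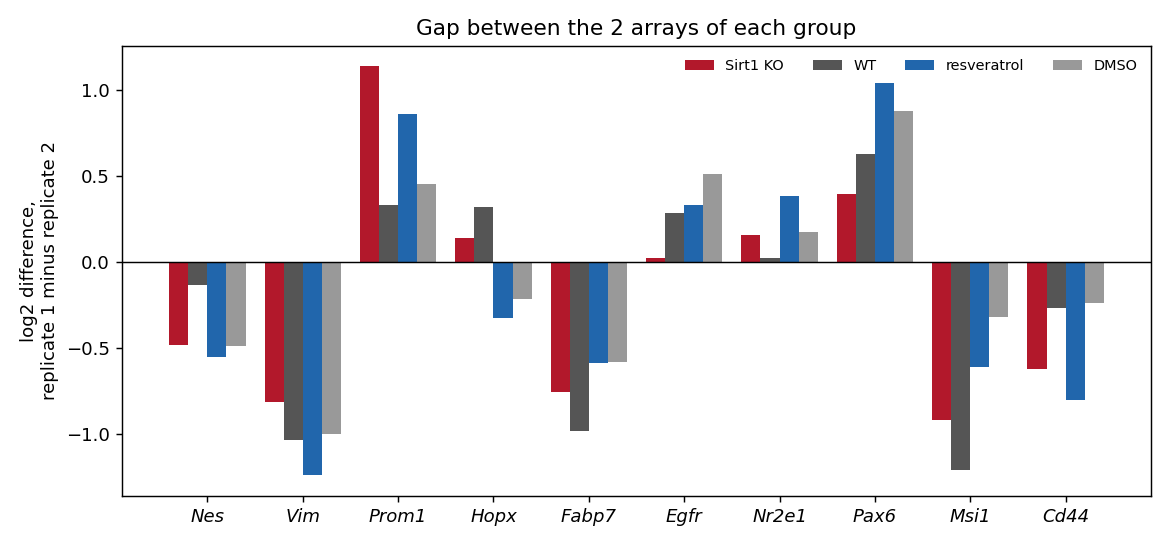
Level on replicate 1 minus level on replicate 2 of the same group, in log2 units, for each marker and group. Bars of a marker point the same way in all 4 groups for every marker except Hopx, and those of Vim reach -1.24.

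Correlations between markers are given as a description over the 8 arrays, which share the groups and this replicate gap. Vim correlated with Fabp7 at 0.826 and Egfr with Pax6 at 0.805, while Nes correlated at -0.863 with Egfr and at -0.861 with Nr2e1. Markers with the same direction of gap did not all go together, as Prom1 with Pax6 gave 0.257 and Nes with Msi1 0.323. The genes most like each marker over the same 8 arrays were Asl for Hopx (r = 0.966), Syt9 for Nes (0.991), Psmb9 for Cd44 (0.986), Mtmr12 for Prom1 (0.985), Kpna3 for Nr2e1 (0.975), Mideas for Egfr (0.961), Mllt10 for Pax6 (0.991), Kpna6 for Msi1 (0.987), Itgal for Vim (0.993) and Dhcr7 for Fabp7 (0.996). Such values are common on these arrays, as 1817 genes correlated above 0.9 with Vim and 1981 with Fabp7, against 50 with Hopx and 18 with Egfr.

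The genes around the markers were read from lists of their pathways, and in all 7 lists 0 genes passed the test in either direction in Sirt1 KO minus WT and in resveratrol minus DMSO. Of 42 further stem and progenitor genes, 40 were tested, with a median difference of 0.08 in Sirt1 KO minus WT and -0.04 in resveratrol minus DMSO. Hes5, a Notch target that holds progenitors undifferentiated, read 4.52 and 4.36 in Sirt1 KO spheres, against 2.87 and 2.68 in WT spheres. It read 3.86 and 2.96 in resveratrol spheres, against 5.27 and 5.16 in DMSO spheres. The groups did not overlap in either comparison, with a difference of 1.66 (SE 0.35, adjusted p = 1) in Sirt1 KO minus WT and -1.81 (SE 0.35, adjusted p = 1) in resveratrol minus DMSO. With replicate as a block Hes5 passed in both (adjusted p = 0.00912 and 0.0144). On the other side, Sox9, a glial and stem cell factor, differed by -0.44 (SE 0.32) in Sirt1 KO minus WT.

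Of 13 genes of other intermediate filaments, nuclear lamins among them, and of proteins that bind such filaments, 10 were tested. Their medians were -0.03 in Sirt1 KO minus WT and 0.40 in resveratrol minus DMSO. Gfap, the filament of astrocytes and adult radial stem cells, read -1.79 and -1.41 in resveratrol spheres, against -3.40 and -3.18 in DMSO spheres, a difference of 1.69 (SE 0.64, adjusted p = 1). It was well above background on 1 of 2 Sirt1 KO arrays and on neither WT array, too few for a fold change. Gfap read higher in Sirt1 KO, but that direction turned under another background correction (-1.18). Nefh, a neurofilament subunit, read -6.34 and -4.95 in Sirt1 KO spheres, on arrays not well above background for it, against -5.51 and -1.83 in WT spheres. WT 2 stood far above WT 1. Computed from normalized means against the lowest signal well above background, Nefh was at least 2.67-fold lower in Sirt1 KO (adjusted p = 1). This bound rests on WT 2, as the difference of -1.97 (SE 1.64) was -0.13 without that array. Lmnb1, a nuclear lamin, differed by -0.44 (SE 0.53) in resveratrol minus DMSO.

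Around Egfr, 24 of 28 ligands, relatives and feedback genes were tested, with medians of 0.05 in both comparisons. Dusp4, a phosphatase that switches off ERK signalling, read 0.57 and 1.40 in resveratrol spheres, against -0.56 and -0.09 in DMSO spheres, with a difference of 1.31 (SE 0.33, adjusted p = 1). The groups did not overlap, and with replicate as a block Dusp4 passed (adjusted p = 0.0242). Erbb4, a relative of Egfr, differed by -0.49 (SE 0.41) there. In Sirt1 KO minus WT, Lrig1, which brakes EGF receptor signalling, differed by 0.56 (SE 0.29), and Spry1, a feedback inhibitor, by -0.31 (SE 0.29).

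Around Cd44, 13 of 16 genes of hyaluronan and its receptors were tested, with medians of 0.05 in Sirt1 KO minus WT and 0.08 in resveratrol minus DMSO. Spp1, which encodes the Cd44 ligand osteopontin, differed by 0.84 (SE 0.55; 0.13 without resveratrol 2) and Rdx, a linker of membrane proteins to actin, by -0.34 (SE 0.33) in resveratrol minus DMSO. Mmp14, a membrane protease, differed by 0.62 (SE 0.39) and Hmmr, another hyaluronan receptor, by -0.32 (SE 0.21) in Sirt1 KO minus WT. Of 9 relatives of Fabp7, 3 were tested. Fabp3, the heart form, differed by 0.61 (SE 0.65) in resveratrol minus DMSO and by -0.09 (SE 0.65) in Sirt1 KO minus WT. Fabp2, the intestinal form, was well above background on 1 of 2 resveratrol arrays and on both DMSO arrays, and its pairs pointed opposite ways (-1.01 and 0.20).

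Of 21 partners and relatives of Nr2e1 and Pax6, 16 were tested, with medians of -0.05 in both comparisons. The corepressor gene Kdm1a differed by -0.21 (SE 0.27) and the zinc finger gene Bcl11a by 0.65 (SE 0.42) in Sirt1 KO minus WT. Hdac5, a histone deacetylase that works with Nr2e1, differed by 0.60 (SE 0.48) and the nuclear receptor Nr2f2 by -0.31 (SE 0.30) in resveratrol minus DMSO. Of 8 relatives and targets of Msi1 and Prom1, 6 were tested, with medians of -0.13 and -0.09. Cdkn1a, a cell cycle inhibitor whose mRNA musashi proteins bind, differed by 1.13 (SE 0.60) in resveratrol minus DMSO, and Dcx, a microtubule protein of young neurons, by -0.56 (SE 0.50) there and by -0.45 (SE 0.50) in Sirt1 KO minus WT, where it was 0.27 without Sirt1 KO 2.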

How the data were processed

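RNA was hybridised to 8 one-colour Agilent arrays, 1 per sample. Per the file headers, the authors read them with Agilent Feature Extraction 10.7.3.1 (10.7 per the submitters' processing notes), and the deposited intensity of each spot was corrected for background and spatial trend within its array. The authors' deposited table of log2 values, with column medians of 6.28 or 6.01, served as an alternative, and its centring is not given in the sources used here. The headers name build mm9. Promoter windows carry RefSeq's own GRCm38.p6 coordinates, and no other coordinates are given.

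Control spots and outlier spots were left out, replicate spots were averaged, and the 75th percentile of each array was subtracted from its log2 intensity. A probe was kept if both arrays of any group read it well above background (26361 of 41174). RefSeq symbols were matched for 26918 probes and not for 14256, and each gene was read from its kept probe of highest mean. limma 3.58.1 in R 4.3.3 fitted 4 group means over 8 arrays with an intensity trend, at an adjusted p of 0.05. The fit was tested on simulated data. Of the values tested 43 were missing, 0 of them in markers.

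The markers and gene lists were chosen with earlier results of these data known. All markers were named, with the gene of highest correlation for each, and from each list the gene furthest in each direction by limma's statistic, of which 1 is not reported here. Alternatives covered background correction, normalization, the dim-probe filter, the choice of probe, the trend, replicate and slide blocks, and each array left out. Replicate numbers mark slides in the treatment groups. In the genotype groups they mark sex, slide and scan day together. Deviations of same-numbered arrays correlated at 0.736 for Sirt1 KO with WT and 0.834 for resveratrol with DMSO. Between genotype and treatment groups, where the replicate block pairs no arrays, they also correlated, at 0.596 (DMSO against WT) and 0.642 (resveratrol against Sirt1 KO). Such correlations alone therefore do not show that same-numbered arrays were true pairs.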

Additional observations from a re-analysis of the deposited data

Results flagged for a closer look

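For 3 markers both replicate pairs of Sirt1 KO minus WT pointed one way and both of resveratrol minus DMSO the other. Pairs pointed opposite ways in this sense for 17.1% of all genes. Nes was lower in Sirt1 KO and higher with resveratrol, and the difference of the differences was -0.79 (SE 0.54). Nr2e1 was higher in Sirt1 KO and lower with resveratrol, with 0.45 (SE 0.32). Pax6 was likewise higher in Sirt1 KO and lower with resveratrol, with 0.51 (SE 0.68), which turned to -0.30 under normexp background correction. In limma's test of the difference itself, each had an adjusted p = 1, so the 2 comparisons are not shown to differ for these genes.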

How the results depend on the processing

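With 2 arrays per group and unlike signal strength between replicates, small differences cannot be resolved here, and leaving out an array sets unlike replicate numbers against each other. Each comparison had 160 values of the markers under the alternatives. In Sirt1 KO minus WT, 149 kept their direction and their side of the threshold. The count was 146 in resveratrol minus DMSO, 142 in the difference of differences and 140 in DMSO minus WT. The direction of many of these values could not change. Replicate as a block and dropping the trend leave each difference as it was, and so does leaving out an array outside the comparison. For markers with a single probe, so do the dim-probe filter and the mean of probes. The same holds for the named list genes below. Hopx, Nes, Egfr, Nr2e1 and Prom1 kept their direction under every alternative in Sirt1 KO minus WT, as did Hopx, Cd44, Nes and Nr2e1 in resveratrol minus DMSO. Direction alone hides small values, as in Sirt1 KO minus WT Nes was -0.083 under normexp and Prom1 -0.11 with the mean of the kept probes. The dimmer Prom1 probe by itself, which was not an alternative, read higher on Sirt1 KO 1 than on WT 1.

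The replicate block was fitted separately in the genotype groups and in the treatment groups. It gives 2 pairs in Sirt1 KO minus WT and 2 in resveratrol minus DMSO. No DMSO array is paired with a WT array, so for DMSO minus WT the block only takes the gap between replicates out of the error. With replicate as a block, 57 genes passed in Sirt1 KO minus WT, 73 in resveratrol minus DMSO, 49 in the difference of differences and 1570 in DMSO minus WT, against 0, 0, 0 and 10 without it. The markers among them were 0, 0, 0 and 3, the last being Hopx (0.79, adjusted p = 0.00384), Msi1 (-0.82, adjusted p = 0.0108) and Prom1 (-1.30, adjusted p = 0.0278), and Hopx had an adjusted p = 0.0541 in Sirt1 KO minus WT. The same block brought Hes5 past the test in Sirt1 KO minus WT (adjusted p = 0.00912) and, with Dusp4 (0.0242), in resveratrol minus DMSO (0.0144). With slide as a block, 145 genes passed in DMSO minus WT and 0 in the other comparisons, and 0 markers in any.

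The cause of the following reversals was not tested. Normexp background correction on median signals, an alternative chosen after the files were seen, turned Fabp7 (0.14) and Pax6 (-0.36) in Sirt1 KO minus WT, Prom1 (0.17) in resveratrol minus DMSO, Vim (0.054), Fabp7 (0.31) and Pax6 (-0.30) in the difference of differences, and Nes (0.23), Fabp7 (0.33), Nr2e1 (0.13) and Pax6 (-0.27) in DMSO minus WT. Slide as a block turned Vim (-0.42) in Sirt1 KO minus WT and Fabp7 (0.25) in DMSO minus WT. Quantile normalization turned Fabp7 in the difference of differences (0.20) and in DMSO minus WT (0.066). The authors' value table turned Fabp7 in the same places (0.21 and 0.081) and Nr2e1 in DMSO minus WT (0.073). The mean of the kept probes turned Egfr in resveratrol minus DMSO (0.031). Of 208 values of the named list genes under these alternatives, 6 were reversed, all by normexp, among them Gfap, Spry1, Fabp3 and Kdm1a in Sirt1 KO minus WT and Fabp2 in resveratrol minus DMSO. With an array left out, 9 of 208 were reversed, among them Dcx in Sirt1 KO minus WT (0.27 without Sirt1 KO 2), Rdx (0.010) and Fabp3 (-0.29) in resveratrol minus DMSO without resveratrol 2, and Fabp3 in Sirt1 KO minus WT (0.35 without Sirt1 KO 1).

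With each array left out in turn, the differences of some markers spanned both signs. In Sirt1 KO minus WT such ranges were -0.100 to 0.52 for Cd44, -0.69 to 0.30 for Fabp7, -0.85 to 0.36 for Msi1, -0.040 to 0.59 for Pax6 and -0.47 to 0.57 for Vim. In resveratrol minus DMSO such ranges were -0.33 to 0.19 for Egfr, -0.43 to 0.16 for Fabp7, -0.19 to 0.42 for Msi1, -0.76 to 0.28 for Pax6, -0.44 to 0.42 for Prom1 and -0.19 to 1.05 for Vim. In the difference of differences such ranges were -0.56 to 0.43 for Fabp7, -0.029 to 0.30 for Hopx, -0.96 to 0.25 for Msi1, -0.0060 to 1.04 for Pax6 and -1.002 to 0.24 for Vim. In DMSO minus WT such ranges were -0.15 to 0.37 for Egfr, -0.55 to 0.44 for Fabp7, -0.44 to 0.055 for Nes, -0.13 to 0.042 for Nr2e1, -0.060 to 0.82 for Pax6 and -0.47 to 0.57 for Vim. The other ranges kept 1 sign, though not their size. In Sirt1 KO minus WT they were -1.20 to -0.064 for Prom1, -0.73 to -0.25 for Nes, 0.53 to 0.85 for Hopx, 0.22 to 0.51 for Egfr and 0.083 to 0.24 for Nr2e1. In resveratrol minus DMSO they were 0.30 to 1.10 for Cd44, 0.022 to 0.57 for Nes, 0.39 to 0.72 for Hopx and -0.49 to -0.099 for Nr2e1. In the difference of differences they were -1.07 to -0.51 for Nes and -1.20 to -0.056 for Prom1, and in DMSO minus WT -1.43 to -0.22 for Msi1.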
